A study of Homo sapiens with 16 samples.

Results

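Acetylation of histone H3 at lysine 27 (H3K27ac), which marks active promoters and enhancers, was compared between IFNα treated USP18-/- and IFNα treated WT THP-1 cells. THP-1 is a monocytic line from a human acute myeloid leukemia. The comparison rests on 4 of the 16 samples of the series, namely replicates 1 and 2 of USP18-/- IFN and of WT IFN. The matching untreated libraries, replicates 1 and 2 of USP18-/- and of WT, were used to separate what differed without IFN, so that 8 H3K27ac libraries entered the fit. The other 8 samples are input chromatin and were not analysed here. WT cells carried Cas9 without a USP18 guide, and USP18-/- cells had USP18 deleted by CRISPR and were grown out from single sorted cells. Treated cells received IFNα at 1000 U/ml for 6 h. A knockout grown from single cells carries the other differences of its founder cell, and the sources used here do not say how many clones were pooled, so genotype and clone cannot be told apart. All groups share the leukemia line, and no control carried a rescued USP18.

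Type I IFN binds the IFNAR receptor, whose kinases JAK1 and TYK2 activate STAT proteins. STAT2 and IRF9 are subunits of the complex ISGF3, which binds the interferon-stimulated response element (ISRE) of interferon-stimulated genes (ISGs). USP18 is itself an ISG. Its protein removes the ubiquitin-like modifier ISG15 from other proteins and, together with STAT2, holds back signalling at IFNAR, so it is known as a negative regulator of the IFN response.

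The values are tags in 1000 bp windows set on merged ATAC-seq peaks, called regions here. Libraries held 9046141 to 12935453.5 tags in regions, which was 36.1% to 42.5% of all tags of a library. Levels are given as CPM, tag counts brought to a common library total after TMM scaling, and since all windows have 1 length they can be set side by side. The first principal component carried 69.0% of the variance and the second 20.3%. Replicates lay close together, with a common biological coefficient of variation of 0.0737 and correlations of log values across regions of 0.974 in WT IFN and 0.979 in USP18-/- IFN libraries. The replicates are labelled as biological, and with 2 libraries a group the tests measure the spread between these libraries. Windows overlapped another in 31.8% of cases, and tags there were counted in each.

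Short stretches of the hg38 genome show the sequence that recurs at the regions described below. ISGF3 and IRF proteins recognise a pair of GAAA units, and the ISRE core searched on both strands was GAAA, any 2 bases and again GAAA. It is shown for USP18 and for named windows that were called higher with IFN and not without it. Of 24 such windows searched, 10 held the core, and the 7 printed here are USP18 and the 6 with the largest difference. Of the 15840 tested windows at gene starts, 10.7% held it. The core is in capitals, each run is written 5′ to 3′, and the sites were chosen after the values of the regions were seen.
USP18: ccattcagtgGAAAACGAAAgctgggcggg (chr22:18150069-18150098, + strand)
CXCL10: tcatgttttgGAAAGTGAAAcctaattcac (chr4:76023699-76023728, - strand)
GBP4: tgtgagaaccGAAATTGAAAggacatgcac (chr1:89198927-89198956, + strand)
BATF2: ggctttaggaGAAACTGAAActtggccctc (chr11:64997026-64997055, - strand)
RSAD2: ttccacatgtGAAACTGAAAgttgaaacag (chr2:6877622-6877651, - strand)
CD274: gtatagaaatGAAACAGAAAgtgaaacatg (chr9:5450330-5450359, - strand)
GBP1: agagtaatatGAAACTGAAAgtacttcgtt (chr1:89065316-89065345, + strand)

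A second set belongs to genes that were higher with and without IFN, and is shown for contrast with the first set. TGATGNAA, the composite site of CHOP and ATF4, transcription factors of the integrated stress response, was in 5 of 8 windows of stress response genes of this kind and in 7.50% of all windows at gene starts. The 3 with the largest difference are shown with the motif in capitals.
ASNS: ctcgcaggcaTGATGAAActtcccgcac (chr7:97872459-97872486, - strand)
SESN2: tagggttgcgTGATGAAAagggacttca (chr1:28259212-28259239, - strand)
TRIB3: ccggtccgggTGATGCAAaccggagcta (chr20:380948-380975, - strand)

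The NF-kB consensus was in 7 of 8 windows of named chemokine, cytokine and NF-kB genes that were already different untreated. It is a loose pattern, found in 38.6% of all windows at gene starts, and the 3 genes with the largest difference are shown with the match in capitals.
IL6: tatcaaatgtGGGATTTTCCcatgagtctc (chr7:22727117-22727146, + strand)
CCL2: agcaggaggaGGGATCTTCCatgagtgata (chr17:34255191-34255220, - strand)
CSF1: atcgtcccaaGGGACTTTCCctccaggcct (chr1:109910459-109910488, - strand)

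Loss of USP18 went with many differences in both directions in IFN treated cells. A region was called when the fold was above 2 and the adjusted p under 0.05 in the quasi-likelihood test of edgeR, with p-values adjusted by Benjamini-Hochberg across the 123276 tested regions of 151654 in the table. In USP18-/- IFN against WT IFN cells 13913 regions were higher (11.3% of those tested) and 16511 were lower (13.4%). Scaling by the plain sum of counts gave 8757 higher and 24180 lower regions, so that the higher share of calls moved from 45.7% to 26.6%. That scaling moved the median log2 difference of all regions by -0.27 and the totals of the tag directories moved it by -0.12, against 0.00 in the fit reported here. Within 3000 bp of a transcription start site (TSS), 4209 of 28847 regions were higher and 1676 lower. Farther away, 9704 of 94429 were higher and 14835 lower. The excess of higher regions near starts depended on the scaling. A separate fit to the regions near starts gave 1824 higher and 3197 lower. Its scaling brings the median of these regions to log2 -0.01, against 0.34 in the fit reported here. A shift that they share is thereby taken out, and its origin was not tested.

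Each called region was then placed by what the untreated libraries showed. A region counted as already different when it was also called, in the same direction, in untreated USP18-/- against WT cells. Untreated cells had a further 2962 higher and 4374 lower regions that were not called with IFN. It counted as different only with IFN when it was not called untreated and the difference between both genotype effects passed the same thresholds. Of the higher regions, 4015 were already different (3.26% of those tested) and 3796 differed only with IFN (3.08%). A further 5884 passed neither rule and stay unassigned. In 218 regions the sign turned, with USP18-/- lower untreated and higher with IFN. Of the lower regions, 8697 were already different (7.05%), 1572 differed only with IFN (1.28%), 6236 stay unassigned and 6 turned sign. Already different regions thus made up 52.7% of the lower and 28.9% of the higher calls, and regions different only with IFN 9.52% and 27.3%. These counts depended on the rule for untreated cells and on the scaling. When any significant untreated difference counted, whatever its fold, 6905 were already higher and 944 lower only with IFN, and by the sum of counts the same classes held 2458 and 2641. The class different only with IFN can thus hold regions with a smaller untreated difference.

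The levels of the classes follow in part from the rules that define them and are given as a description. Higher regions that were already different had median CPM of 3.11 in WT, 3.33 in WT IFN, 9.38 in USP18-/- and 11.6 in USP18-/- IFN cells. Higher regions of the IFN-only kind started level, at 2.72 and 2.67 in untreated WT and USP18-/- cells, and reached 3.37 and 13.5 with IFN. Lower regions that were already different fell from 5.96 and 5.35 in WT cells to 1.79 and 1.42 in USP18-/- cells. Lower regions of the IFN-only kind were at 13.1, 12.4 and 10.0 in WT, WT IFN and USP18-/- cells and at 3.89 in USP18-/- IFN cells. Regions near a TSS made up 33.6% of the already higher class and 17.9% of the IFN-only higher class, against 9.65% and 10.9% in the lower classes and 23.4% of all tested regions. For 236 of the 4015 already higher and 483 of the 8697 already lower regions, the difference was also significantly larger with IFN than without.

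**Figure D1:**
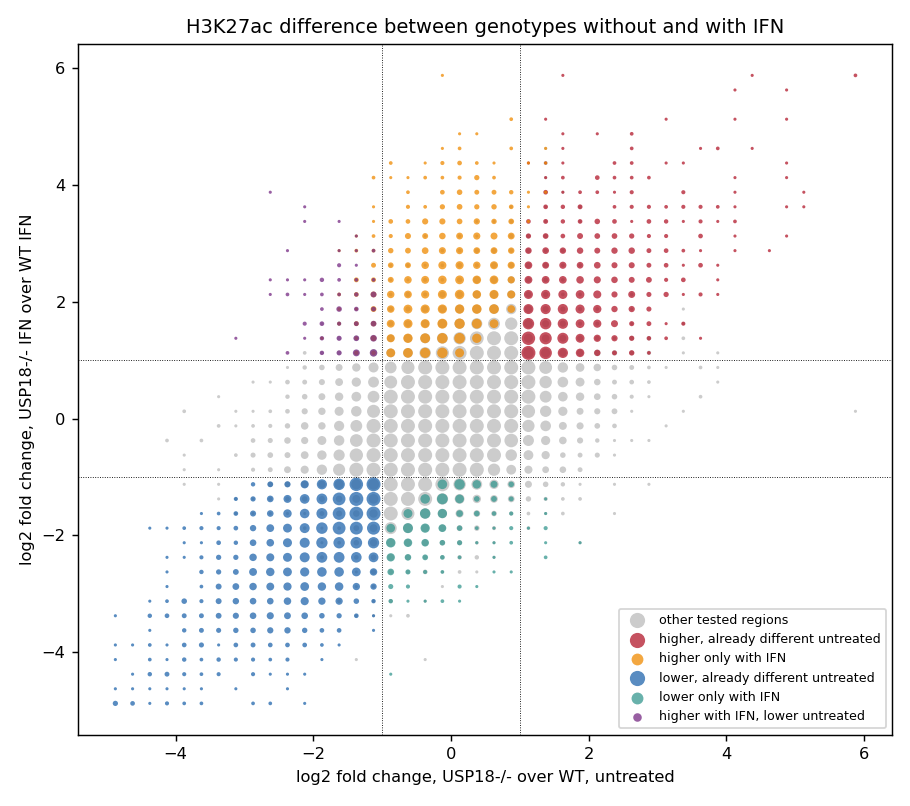
Log2 fold change of H3K27ac between USP18-/- and WT cells, untreated on the horizontal axis and with IFN on the vertical axis, with regions counted in squares of 0.25 log2 units, a larger dot for more regions, values outside the range drawn at its edge, and dotted lines at 2-fold. Already different regions lie in the upper right and lower left corners, IFN-only regions lie above and below the centre, and the 218 regions that turned sign lie at the upper left.

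At the start of USP18 itself (chromosome 22, 18149602 to 18150602, in the 5′ UTR) replicates gave 7.85 and 7.62 CPM in WT, 18.04 and 15.0 in WT IFN, 8.20 and 8.47 in USP18-/- and 49.2 and 41.7 in USP18-/- IFN libraries. Without IFN all 4 libraries lay close together, and with IFN both USP18-/- libraries were above both WT libraries. The locus was therefore higher only with IFN (log2 1.46, SE 0.13, adjusted p = 6.1e-17), with 0.11 untreated. The acetylation of a promoter does not tell whether the protein is made, so this value does not check the deletion.

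The genes of the IFN cascade were read at the region nearest their TSS, at most 3000 bp away, and the same was done for 15840 genes as background. Of these, 2118 were higher (13.4%) and 781 lower (4.93%) in USP18-/- IFN cells. The already different classes held 655 higher (4.14%) and 399 lower genes (2.52%), and the IFN-only classes 292 higher (1.84%) and 68 lower genes (0.429%). Of the 66 IFN-only higher genes in the lists below, 21 were also significantly higher untreated by less than 2-fold and 6 significantly lower. Of the 5 IFN-only lower genes, 2 were also significantly lower untreated by less than 2-fold. The median gene was at log2 0.35, and at 0.00 when regions near starts were scaled alone, so list medians are read against that value and counts under that scaling are given beside them. It called 861 of all genes higher (5.44%) and 1534 lower (9.68%), the shares against which those counts are read.

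Of the 8 genes for receptor and ISGF3, 4 were higher, with a median of log2 0.75, and 0 under the scaling of regions near starts alone. STAT2, the ISGF3 subunit to which USP18 binds, had 17.1 and 16.1 CPM in WT, 21.7 and 19.9 in WT IFN, 18.2 and 17.3 in USP18-/- and 54.0 and 48.1 in USP18-/- IFN libraries. The USP18-/- IFN pair stood far above the other 6 libraries (log2 1.29, SE 0.12, adjusted p = 2.1e-16). IRF9, the DNA-binding subunit, rose with IFN in both genotypes (adjusted p = 5.2e-19 in WT and 2.5e-30 in USP18-/- cells, edgeR), from 14.4 and 12.6 to 43.0 and 42.6 CPM in WT and from 25.4 and 20.9 to 106 and 91.3 CPM in USP18-/- cells (log2 1.20, SE 0.10, adjusted p = 4.4e-18 between genotypes with IFN). STAT3 was higher only with IFN (log2 1.11). The receptor chain IFNAR1 was at log2 0.46 and not called. STAT2 lies in a 10 Mb stretch of chromosome 12 whose median region was at -0.49.

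Of 9 inhibitors of IFN signalling, 4 were higher, USP18 included, and 3 under the scaling of regions near starts alone. SOCS2, a suppressor of cytokine signalling, was already different, at 4.55 and 4.36 CPM in WT and 17.98 and 15.1 in USP18-/- libraries without IFN and at 2.38 and 4.51 and 13.4 and 12.8 with it (log2 1.93). SOCS1, which blocks JAK kinases, was at log2 1.39 with IFN and 0.55 without, and stays unassigned. PTPN6, a phosphatase, had a log2 value of 0.94 and was not called.

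All 6 genes of ISG15 conjugation were higher, and 4 of them only with IFN, with a median of log2 1.45. Under the scaling of regions near starts alone 4 of the 6 were called. The E2 enzyme UBE2L6 had 1.34 and 1.72 CPM in WT, 5.05 and 2.77 in WT IFN, 1.40 and 2.02 in USP18-/- and 18.1 and 17.2 in USP18-/- IFN libraries. Its USP18-/- IFN libraries were the highest, with WT IFN next and both untreated groups below (log2 2.16, SE 0.21, adjusted p = 2.5e-15). UBA7, the E1 enzyme, was higher only with IFN as well (log2 1.48, SE 0.11, adjusted p = 2.9e-20), as were ISG15 itself (log2 1.42) and the ligase HERC5 (log2 1.18). HERC6, a relative of HERC5, was already different, at 5.06 and 6.53 CPM in WT and 15.4 and 15.6 in USP18-/- cells untreated and 24.1 and 21.7 and 86.4 and 82.7 with IFN (log2 1.88).

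Antiviral effectors formed the list with the most IFN-only genes. Of 34 tested, 31 were higher, 23 of them only with IFN and 4 already different, 1 was lower, and the median was log2 1.84 with IFN against 0.27 without. Under the scaling of regions near starts alone, 23 were higher and 1 lower. IFIT5, which binds viral RNA, had 1.34 and 2.18 CPM in WT, 9.41 and 10.3 in WT IFN, 3.40 and 3.85 in USP18-/- and 66.0 and 70.7 in USP18-/- IFN libraries. The genotypes were apart in both conditions (log2 2.80, SE 0.14, adjusted p = 4.1e-32 with IFN, log2 1.01 untreated). OAS3, which makes the second messenger that activates RNase L, was also already different (log2 2.62 and 1.44). RSAD2, the antiviral enzyme viperin, had 0.413 and 0.363 CPM in WT, 2.58 and 1.85 in WT IFN, 0.262 and 0.674 in USP18-/- and 15.5 and 11.2 in USP18-/- IFN libraries. Its untreated libraries overlapped between genotypes and its IFN libraries did not (log2 2.59, SE 0.25, adjusted p = 2.1e-15). IFITM1, which blocks virus entry, turned sign, with log2 -1.73 untreated and 1.33 with IFN, and is named because of that. XAF1 was not called, at 55.0 and 56.7 CPM in WT IFN and 86.0 and 89.5 in USP18-/- IFN libraries, in a stretch with a median of -0.52. EIF2AK2, the kinase PKR, was the other member not called (log2 0.92).

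MX1 was the 1 lower effector, and the 2 windows at its starts went opposite ways. The window at 157 bp from the TSS of the listed transcript, in a 5′ UTR, had 7.53 and 4.41 CPM in WT IFN and 1.95 and 1.03 in USP18-/- IFN libraries (log2 -1.99, SE 0.32, adjusted p = 1.4e-07). A second window, at -236 bp from the start of another MX1 transcript, had 13.0 and 9.89 CPM in WT, 23.9 and 22.1 in WT IFN, 7.59 and 7.80 in USP18-/- and 69.7 and 62.0 in USP18-/- IFN libraries. That window was higher only with IFN (log2 1.52, SE 0.12, adjusted p = 3.7e-20). Both windows were looked at together after their values were seen. APOBEC3A, a cytidine deaminase, HLA genes, IFITM genes and CCL4L2 have near-identical copies, whose reads the mapping could split.

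Of 15 sensors of foreign RNA and DNA, 10 were higher, 4 of them only with IFN, and 7 under the scaling of regions near starts alone. RIGI, a sensor of viral RNA, had 3.72 and 3.36 CPM in WT, 7.14 and 7.38 in WT IFN, 5.32 and 5.87 in USP18-/- and 50.3 and 50.4 in USP18-/- IFN libraries. With IFN the genotypes were far apart, while the untreated difference stayed under 2-fold (log2 2.79, SE 0.15, adjusted p = 8.4e-30, log2 0.66 untreated). IFIH1, the sensor MDA5, was already different (log2 1.36 untreated and 2.81 with IFN). AIM2, the sensor of an inflammasome for cytosolic DNA, had 3.82 and 2.81 CPM in WT, 3.77 and 3.69 in WT IFN, 0.611 and 0.770 in USP18-/- and 18.5 and 18.5 in USP18-/- IFN libraries. It was the lowest in untreated USP18-/- cells and the highest in USP18-/- IFN cells, log2 -2.24 and 2.31, and the IFN effect in WT cells was not called (log2 0.18). STING1, an adaptor of DNA sensing, was at 83.8 and 92.0 and 119 and 107 CPM with IFN and was not called.

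Of the 8 interferon regulatory factors, 4 were higher, and 2 under the scaling of regions near starts alone. IRF2, which represses as well as activates ISGs, was higher only with IFN, at 27.2 and 24.6 CPM in WT IFN and 86.8 and 87.9 in USP18-/- IFN libraries (log2 1.75, SE 0.11, adjusted p = 2.6e-26). IRF5 (log2 1.51) and IRF7 (log2 1.09) were higher and unassigned, and IRF3, which is activated by phosphorylation, was at log2 0.41 and not called. All 5 guanylate binding proteins, GTPases that act on intracellular microbes, were higher only with IFN, 4 of them also under the scaling of regions near starts alone. GBP4 had 2.69 and 1.09 CPM in WT, 2.08 and 2.56 in WT IFN, 3.32 and 1.64 in USP18-/- and 23.1 and 20.4 in USP18-/- IFN libraries. In WT cells the IFN pair lay within the untreated pair, and the USP18-/- IFN libraries stood above all others (log2 3.22, SE 0.23, adjusted p = 5.9e-22). GBP5 (log2 2.62) and GBP1 (log2 2.37) followed. All 10 tested PARP and SP100 family genes were higher, 6 of them only with IFN, with PARP10 at log2 1.91, SP100 at 1.81 and SP140L at 1.78, and 8 under the scaling of regions near starts alone.

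Of 15 genes for MHC class I presentation 14 were higher, 5 of them only with IFN and 4 already different, and 12 under the scaling of regions near starts alone. TAPBP, which loads peptides, had 16.8 and 17.7 CPM in WT, 20.8 and 20.5 in WT IFN, 41.5 and 46.4 in USP18-/- and 87.7 and 94.4 in USP18-/- IFN libraries. The genotypes did not overlap in either condition (log2 2.14, SE 0.11, adjusted p = 8.8e-31 with IFN, log2 1.34 untreated). HLA-B had a log2 value of 2.08 and was already different too, while the immunoproteasome subunit PSMB8 was higher only with IFN (log2 2.00). ERAP2, which trims peptides, was at log2 0.05. Of 10 MHC class II genes 0 were higher in edgeR and 0 in DESeq2, with 3 higher at an unadjusted p under 0.05 and a median of log2 0.47, and 1 was higher with loess offsets. CIITA, the activator of class II genes, was lower, at 7.14 and 5.95 CPM in WT IFN and 2.84 and 2.53 in USP18-/- IFN libraries (log2 -1.28, SE 0.25, adjusted p = 1.3e-05), and CD74 was at log2 0.35.

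**Figure D2:**
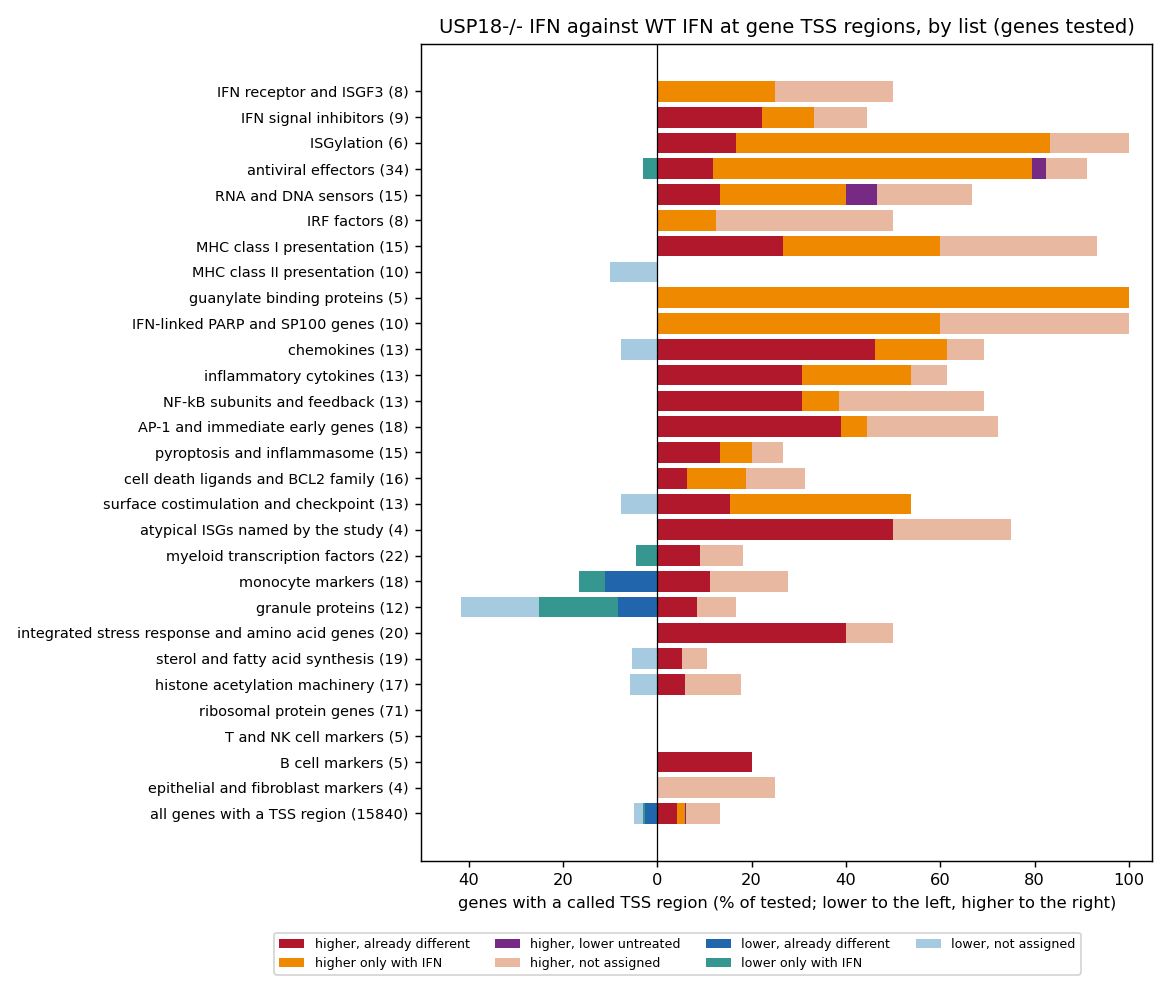
Share of the tested genes of each list whose TSS region was higher (right) or lower (left) in USP18-/- IFN than in WT IFN cells, coloured by class, with the number of tested genes in parentheses and all genes in the last bar. The IFN-only class takes all 5 guanylate binding protein genes and 23 of 34 antiviral effectors, the already different class takes 6 of 13 chemokine and 8 of 20 stress response genes, and 0 of 71 ribosomal protein genes were called.

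Chemokine, cytokine and NF-kB lists held more already different than IFN-only higher genes, as did all genes (655 against 292). Of 13 chemokine genes 9 were higher, 6 already different and 2 only with IFN, and 1 was lower, while 8 were higher and 3 lower under the scaling of regions near starts alone. CXCL10, which draws T cells, had 0.620 and 0.363 CPM in WT, 0.793 and 0.718 in WT IFN, 1.13 and 0.577 in USP18-/- and 18.5 and 17.7 in USP18-/- IFN libraries. All libraries but the USP18-/- IFN pair were near the lower end of detection (log2 4.56, SE 0.28, adjusted p = 2.3e-25). CCL2, which draws monocytes, had 1.03 and 1.09 CPM in WT, 0.991 and 1.23 in WT IFN, 4.28 and 4.14 in USP18-/- and 12.5 and 10.98 in USP18-/- IFN libraries. Untreated USP18-/- cells lay between WT and USP18-/- IFN cells (log2 3.39, SE 0.28, adjusted p = 9.6e-19 with IFN, log2 1.97 untreated). CCL4L2 was at log2 3.43 with IFN and 2.22 without. CXCL1, which draws neutrophils, was lower (log2 -1.12), and CXCL2 was at log2 -0.39.

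Of 13 inflammatory cytokine genes 8 were higher, 4 of them already different and 3 only with IFN, and 5 under the scaling of regions near starts alone. IL6 had 0.207 and 0.726 CPM in WT, 1.19 and 1.03 in WT IFN, 2.01 and 1.83 in USP18-/- and 12.7 and 12.3 in USP18-/- IFN libraries. Its genotypes did not overlap in either condition (log2 3.48, SE 0.28, adjusted p = 6.6e-19 with IFN, log2 1.97 untreated). TNF had 14.8 and 15.2 CPM in WT, 17.2 and 18.2 in WT IFN, 48.1 and 46.5 in USP18-/- and 87.7 and 87.4 in USP18-/- IFN libraries. It was apart between genotypes without IFN and more so with it (log2 2.31, SE 0.11, adjusted p = 2.1e-32 with IFN, log2 1.66 untreated). CSF1, the macrophage growth factor, was at log2 2.94, and IL23A at 0.28 was not called. IL27 (log2 1.54), IL15 (1.33) and IL1RN (1.05) were the 3 IFN-only members.

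Of 13 NF-kB subunits and feedback genes 9 were higher, 4 already different and 1 only with IFN, and 4 under the scaling of regions near starts alone. RELB, a subunit of the non-canonical pathway, had 11.1 and 9.62 CPM in WT, 9.91 and 10.1 in WT IFN, 34.7 and 25.7 in USP18-/- and 50.1 and 43.7 in USP18-/- IFN libraries. The USP18-/- libraries were apart from WT at both conditions (log2 2.23, SE 0.14, adjusted p = 3.5e-25). Its partner NFKB2 was at log2 1.94 with IFN and 1.61 without, and the coactivator BCL3 at 1.94 and 1.60. NFKBIA, the inhibitor IκBα, was just under the fold threshold (log2 0.97, and 0.87 untreated). NFKBIZ was the 1 IFN-only member (log2 1.61).

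Of 18 AP-1 and immediate early genes 13 were higher, 7 already different and 1 only with IFN, and 7 under the scaling of regions near starts alone. BATF2, an IFN-induced AP-1 relative, was that 1 gene, with 4.13 and 3.81 CPM in WT, 5.45 and 5.44 in WT IFN, 7.51 and 5.97 in USP18-/- and 49.6 and 45.6 in USP18-/- IFN libraries. The USP18-/- IFN pair stood far above the others (log2 3.13, SE 0.16, adjusted p = 5.2e-31 with IFN, log2 0.77, adjusted p = 0.0026 untreated). FOSB was at log2 2.57 untreated and 2.76 with IFN, BATF3 at 1.04 and 1.62, and FOSL2 at 0.79 with IFN was not called.

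The genes of the integrated stress response, which adjusts amino acid supply, were already different where they could be assigned. Of 20 tested, 10 were higher, 8 of them already different and 0 only with IFN in edgeR and in DESeq2 (at an unadjusted p under 0.05 the genotype log2 difference was higher with IFN in 5 genes and lower in 3), with medians of log2 1.01 untreated and 1.04 with IFN. Under the scaling of regions near starts alone 7 were higher. ASNS, asparagine synthetase, had 5.48 and 3.45 CPM in WT, 4.86 and 5.64 in WT IFN, 19.7 and 21.7 in USP18-/- and 23.3 and 23.8 in USP18-/- IFN libraries. The genotypes were apart by nearly the same factor in both conditions (log2 2.16, SE 0.18, adjusted p = 5.1e-19 with IFN, log2 2.23 untreated). SESN2, a stress-induced regulator of growth signalling, was at log2 2.07 and 2.11, and TRIB3, a pseudokinase target of CHOP, at 1.99 and 1.63. CEBPG, a partner of ATF4, was at log2 0.97 and not called, and ATF4 itself was at 0.81.

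Of 13 genes for costimulation and checkpoints, 7 were higher, 5 of them only with IFN, and 1 was lower, while 5 were higher under the scaling of regions near starts alone. CD274, the ligand PD-L1, had 7.23 and 6.44 CPM in WT, 7.33 and 10.2 in WT IFN, 13.2 and 10.5 in USP18-/- and 50.9 and 45.7 in USP18-/- IFN libraries. Untreated USP18-/- libraries were above WT by less than 2-fold, and the USP18-/- IFN pair was far above all others (log2 2.47, SE 0.15, adjusted p = 1.1e-26 with IFN, log2 0.80, adjusted p = 1.4e-04 untreated). ICAM1, an adhesion molecule, was already different (log2 2.08 untreated, 2.38 with IFN), and CD80 was higher only with IFN (log2 1.87). CD86 was lower at levels near 1 CPM (log2 -1.33, adjusted p = 0.033), and TNFSF9 was at 0.23.

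Of 16 genes for death ligands and the BCL2 family 5 were higher, and 1 under the scaling of regions near starts alone. TNFSF10, the death ligand TRAIL, had 39.5 and 34.4 CPM in WT, 32.3 and 34.9 in WT IFN, 21.992 and 20.98 in USP18-/- and 87.0 and 75.7 in USP18-/- IFN libraries. Untreated USP18-/- libraries lay below WT libraries by less than 2-fold, and with IFN they were higher (log2 1.28, SE 0.10, adjusted p = 7.9e-19 with IFN, log2 -0.78 untreated). Its receptor gene TNFRSF10B was already different (log2 1.57), BBC3 was at 1.14 and unassigned, and MCL1, which protects from death, was at 0.81 and not called. Of 15 pyroptosis and inflammasome genes 4 were higher, against 13.4% of all genes, and 3 were higher and 2 lower under the scaling of regions near starts alone. CASP5 was at 0.495 and 1.03 CPM in WT IFN and 3.82 and 3.10 in USP18-/- IFN libraries (log2 2.18), NLRC4 at log2 1.40 and CARD16, the IFN-only member, at 1.35. GSDMD, the pore protein of pyroptosis, was at 0.82 and NLRP3 at -0.32, neither called.

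The study defined atypical ISGs from RNA measurements of such cells. It singled out 4 of them for NF-kB motifs in active promoters or enhancers and showed H3K27ac at PLK2, so the set is not independent of these libraries. Of the 4 genes, 3 were higher at their TSS region. CCL4L2 (log2 3.43) and FPR1, a receptor for formylated peptides (log2 1.57, 1.12 untreated), were already different, and SGK1, a kinase, was at 1.61 and unassigned. At the TSS region of PLK2, a polo-like kinase, libraries had 16.2 and 14.4 CPM in WT, 16.6 and 14.2 in WT IFN, 19.3 and 22.5 in USP18-/- and 22.8 and 22.2 in USP18-/- IFN libraries. This did not reach 2-fold (log2 0.54). A region at -2206 bp from the TSS of PLK2 had 5.05 and 5.13 CPM in WT IFN and 14.1 and 11.5 in USP18-/- IFN libraries and was higher (log2 1.33, SE 0.20, adjusted p = 2.3e-08). It stays unassigned, with log2 0.54 untreated (adjusted p = 0.077, edgeR). A region at -2367 bp from FPR1 was higher only with IFN (log2 1.14). A window at -754 bp from another start of SGK1 was already different (log2 2.24 with IFN, 1.70 untreated).

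**Figure D3:**
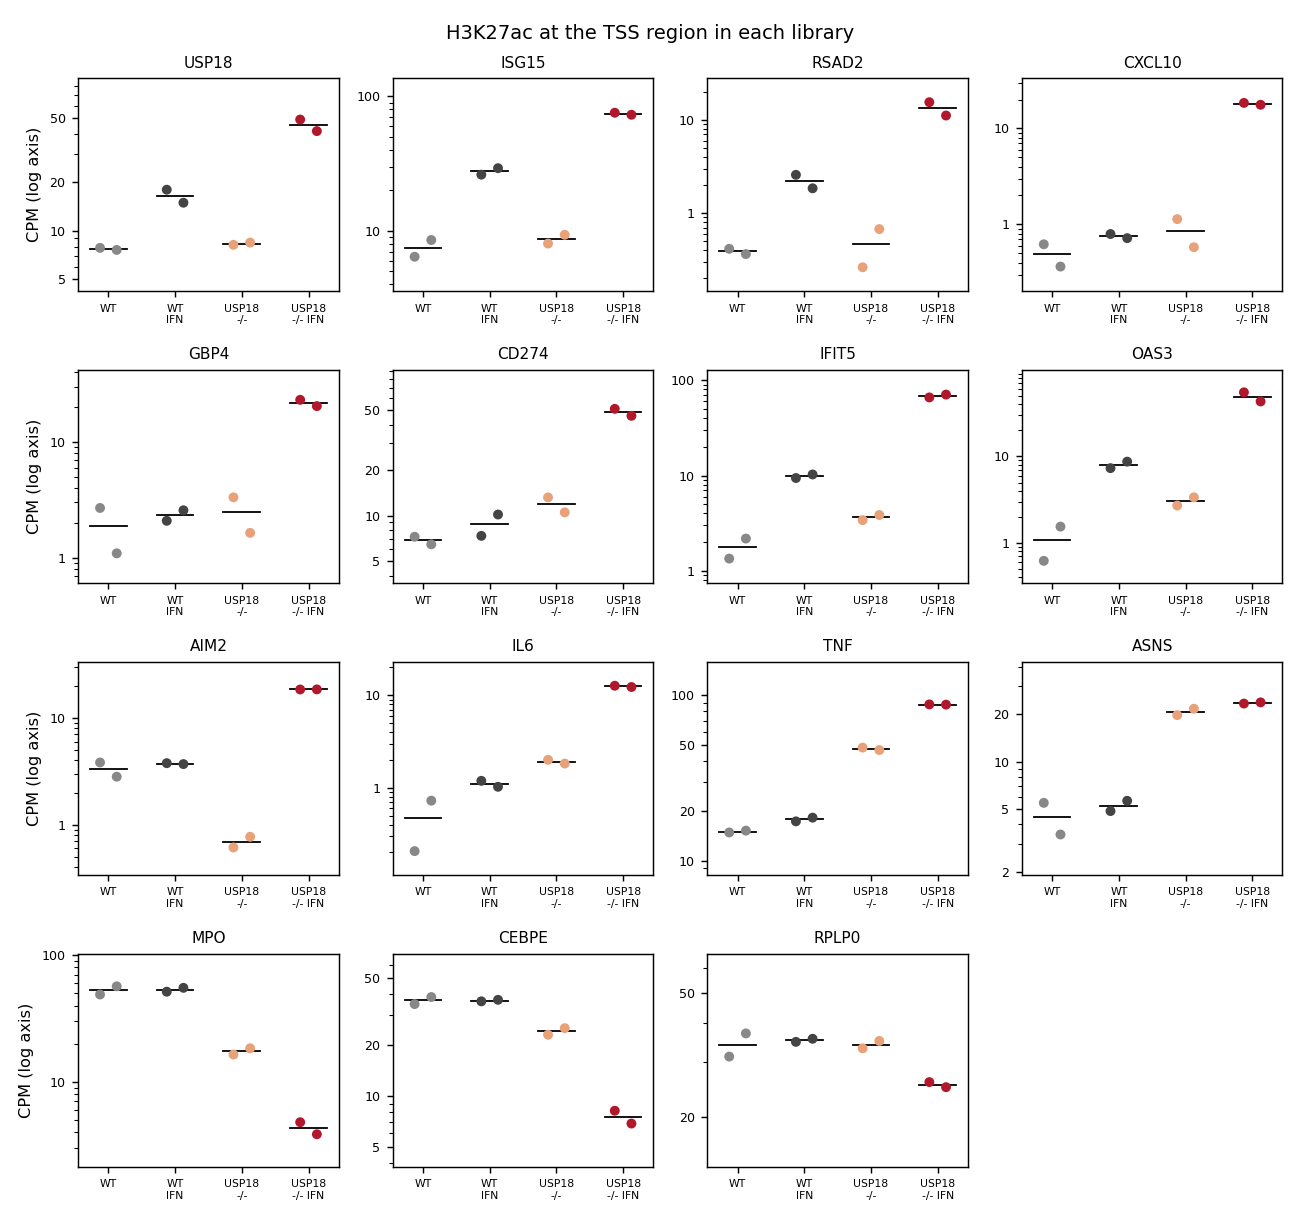
H3K27ac at the TSS region of 15 genes in CPM on a log axis, with 1 dot for each of the 2 libraries of WT, WT IFN, USP18-/- and USP18-/- IFN cells and a line at their mean. At USP18, ISG15, RSAD2, CXCL10, GBP4 and CD274 the untreated genotypes differ by less than 2-fold, significantly so at CD274 alone, and USP18-/- IFN libraries are the highest, at IL6, TNF and ASNS the genotypes are apart without IFN, at AIM2 the order turns, and at MPO and CEBPE USP18-/- IFN libraries are the lowest.

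The lower side held granulocyte genes. Of 12 granule protein genes 5 were lower and 2 higher, with a median of log2 -0.58, and under the scaling of regions near starts alone 5 were lower and 0 higher. MPO, myeloperoxidase, had 48.9 and 56.7 CPM in WT, 51.4 and 55.2 in WT IFN, 16.4 and 18.4 in USP18-/- and 4.79 and 3.85 in USP18-/- IFN libraries. It was lower in USP18-/- cells untreated and lower again with IFN (log2 -3.62, SE 0.15, adjusted p = 1.4e-36 with IFN, log2 -1.61 untreated). PRTN3, proteinase 3, had 77.3 and 75.3 CPM in WT, 70.5 and 72.9 in WT IFN, 60.3 and 59.8 in USP18-/- and 22.99 and 20.4 in USP18-/- IFN libraries. Its difference was of the IFN-only class (log2 -1.72, SE 0.10, adjusted p = 4.0e-26), with a smaller one untreated (log2 -0.35, adjusted p = 0.0019, edgeR). AZU1 was of the IFN-only class too (log2 -1.26), while CTSG, cathepsin G, was lower and unassigned (log2 -1.57). SRGN, the core protein of granule proteoglycan, was higher at log2 1.14. CST7 was called higher at levels under 3 CPM in all libraries (log2 1.31), and SERPINB1 was at 0.50.

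Among 22 transcription factors of the myeloid line 4 were higher and 1 lower, against 13.4% and 4.93% of all genes. Under the scaling of regions near starts alone 1 was higher and 2 were lower, against 5.44% and 9.68% of all genes. CEBPE, which drives late granulocyte differentiation, had 35.02 and 38.6 CPM in WT, 36.4 and 37.1 in WT IFN, 23.04 and 25.2 in USP18-/- and 8.17 and 6.85 in USP18-/- IFN libraries. It was lower without IFN by less than 2-fold (log2 -0.61, adjusted p = 1.5e-05, edgeR) and is of the IFN-only class (log2 -2.29, SE 0.14, adjusted p = 1.6e-25 with IFN). BCL6 (log2 1.23) and KLF2 (1.17) were higher and unassigned, and SPI1, the myeloid factor PU.1, was at 0.84 and not called.

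Monocyte markers went both ways. Of 18 tested, 5 were higher and 3 lower, and 2 and 4 under the scaling of regions near starts alone. TYROBP, an adaptor of activating receptors, was at 22.004 and 23.1 CPM in WT, 25.6 and 27.4 in WT IFN, 61.7 and 60.9 in USP18-/- and 85.3 and 88.0 in USP18-/- IFN libraries (log2 1.71). FCER1G, a related adaptor, was at log2 1.55 in a stretch with a median of 0.52, and CD14 at 1.27. The calcium-binding alarmins S100A8 (log2 -1.81) and S100A9 (-1.62) were already lower. LYZ, lysozyme, had 12.2 and 11.4 CPM in WT, 11.4 and 10.97 in WT IFN, 14.3 and 12.9 in USP18-/- and 5.68 and 4.60 in USP18-/- IFN libraries. Its promoter was lower only with IFN (log2 -1.12, SE 0.19, adjusted p = 8.8e-07). The 5 tested regions upstream of LYZ, from -4779 to -26826 bp, were already lower, with log2 values of -1.27 to -2.99 with IFN, and were looked at after their values were seen. CD68 was at log2 0.48.

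Other lists were read in the same way. Of 71 ribosomal protein genes 0 were called in either direction in edgeR and DESeq2, with 24 higher and 13 lower at an unadjusted p under 0.05. Their median was at log2 0.07, and at -0.21 by the sum of counts, -0.05 by tag totals, -0.21 with loess offsets and -0.28 when regions near starts were scaled alone. Under that last scaling 2 of these genes were called lower. By the sum of counts 1 was called lower, and with loess offsets 1. RPS18 was at log2 0.52. Of 19 sterol and fatty acid genes 2 were higher, SQLE (1.30) and SREBF2 (1.12), and 1 lower, SREBF1 (-1.14, in a stretch with a median of -0.87), with FDPS at -0.19. Of 17 genes for histone acetylation 3 were higher, among them CREBBP (1.52) and BRD3 (1.51), and 1 lower, KAT2A (-1.14), with BRD2 at 0.88. Of all genes, 13.4% were higher and 4.93% lower. Under the scaling of regions near starts alone, 0 sterol genes were higher and 1 lower, and 2 histone acetylation genes were higher and 1 lower.

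The label of a monocytic line was set against its markers, with levels given for some of them. SPI1 was at 69.1 and 64.6 CPM in WT libraries, CD68 at 26.03 and 24.2, LYZ at 12.2 and 11.4, CD33 at 12.2 and 9.08, ITGAM at 11.2 and 12.2 and CD14 at 4.96 and 3.18, and 18 of 20 listed monocyte markers had a tested TSS region. Markers of other cell types had such a region for 5 of 10 T and NK cell, 5 of 7 B cell, 1 of 8 erythroid and megakaryocyte and 4 of 9 epithelial and fibroblast genes. A tested region thus did not by itself separate the cell types. Median CPM of the tested genes in WT IFN cells was 10.8 for monocyte markers and 8.37 for all genes. It was 2.52 for T and NK cell, 2.87 for B cell and 1.21 for epithelial and fibroblast genes. The erythroid and megakaryocyte gene was at 1.57. Of the T and NK cell genes 0 were called in edgeR and DESeq2, with 1 lower at an unadjusted p under 0.05 and 2 lower under the scaling of regions near starts alone, and NKG7 was at log2 -0.03. Of the B cell genes PAX5 was higher at about 2 CPM (1.15), with BLNK at 0.79. The erythroid and megakaryocyte gene, ITGA2B, was at -0.01. Of the epithelial and fibroblast genes COL1A1 was at 1.00 and PDGFRB at 0.08, with COL1A1 called, and neither PAX5 nor COL1A1 was called by the sum of counts.

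Among the named single regions within 50000 bp of a protein-coding gene, the largest rise lay upstream of its gene and the largest fall at a gene start. A region at -11702 bp from the TSS of CCL8, a chemokine for monocytes (chromosome 17, 34306845 to 34307845), had 0.723 and 0.363 CPM in WT, 0.595 and 0.410 in WT IFN, 1.48 and 1.64 in USP18-/- and 31.9 and 30.8 in USP18-/- IFN libraries. The genotypes were already apart untreated at a low level, and USP18-/- IFN cells were 60.8-fold above WT IFN cells (log2 5.93, SE 0.27, adjusted p = 1.2e-33). A second region at -4658 bp from CCL8 was not called without IFN (log2 0.97, at 0.413 and 0.635 CPM in WT and 1.05 and 1.06 in USP18-/- libraries) and belonged to the IFN-only class, at 0.892 and 0.615 CPM in WT IFN and 27.9 and 23.8 in USP18-/- IFN libraries (log2 5.08, SE 0.26, adjusted p = 3.0e-30). All 5 tested regions of the CCL8 locus were higher, 3 already different and 2 only with IFN.

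The region at -6267 bp from SMARCD2, a chromatin remodelling subunit, had 0.413 and 1.09 CPM in WT, 0.495 and 0.410 in WT IFN, 20.2 and 23.2 in USP18-/- and 22.2 and 23.9 in USP18-/- IFN libraries. Both USP18-/- groups were high (log2 5.63 with IFN and 4.79 without). Regions at SFT2D2 (log2 5.13 against 3.06 untreated) and GPR161 (4.76 against 2.11) had differences that were significantly larger with IFN. The region near MTM1, a lipid phosphatase, was at 4.77 against 2.56. SFT2D2 and GPR161 are neighbours in a stretch of chromosome 1 with a median of 0.52.

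The named IFN-only regions of the higher kind were near silent in the other groups. The region at -3349 bp from APOBEC3A, a deaminase that mutates viral DNA (chromosome 22, 38953673 to 38954673), had 1.14 and 0.817 CPM in WT, 1.19 and 1.33 in WT IFN, 0.873 and 1.44 in USP18-/- and 37.2 and 37.3 in USP18-/- IFN libraries. The 6 other libraries were near 1 CPM (log2 4.87, SE 0.22, adjusted p = 9.2e-34). Regions near CENPP (log2 4.62), TSC22D1 (4.48) and SAMD4A (4.45) had the same shape, with untreated log2 values of -0.00, 0.43 and 0.74.

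Among already lower regions, the start of CACNA2D1, a calcium channel subunit (chromosome 7, 82443151 to 82444151, 5′ UTR), had 52.1 and 49.4 CPM in WT, 62.2 and 49.7 in WT IFN, 0.960 and 1.25 in USP18-/- and 0.976 and 1.03 in USP18-/- IFN libraries. WT and USP18-/- libraries were far apart with and without IFN (log2 -5.79, SE 0.20, adjusted p = 4.6e-42 with IFN, log2 -5.51 untreated). Regions at SARDH (log2 -5.62), ADAMTS15 (-4.94), POPDC3 (-4.82) and LAMP5 (-4.76) were likewise low without IFN. A region in ST3GAL4, a sialyltransferase gene, had 74.3 and 70.9 CPM in WT, 54.8 and 54.5 in WT IFN, 8.99 and 10.7 in USP18-/- and 1.69 and 2.25 in USP18-/- IFN libraries. Its genotype difference was significantly larger with IFN (log2 -4.79 with IFN, -2.89 untreated).

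Lower regions of the IFN-only kind were active in the other groups. The region at -31801 bp from LOC101927844 (chromosome 1, 87180368 to 87181368) had 24.2 and 24.2 CPM in WT, 22.8 and 24.2 in WT IFN, 20.5 and 20.3 in USP18-/- and 3.46 and 3.85 in USP18-/- IFN libraries. The USP18-/- IFN pair was far below the other 6 libraries (log2 -2.68, SE 0.18, adjusted p = 4.2e-24). Regions near LOC339862 (log2 -2.90), PDE6H (-2.82), SOWAHB (-2.72), PHACTR3 (-2.71) and AKAP2 (-2.61) had smaller drops in untreated cells, from -0.58 to -0.95, that did not reach 2-fold (adjusted p from 2.7e-10 to 0.019, edgeR).

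**Figure D4:**
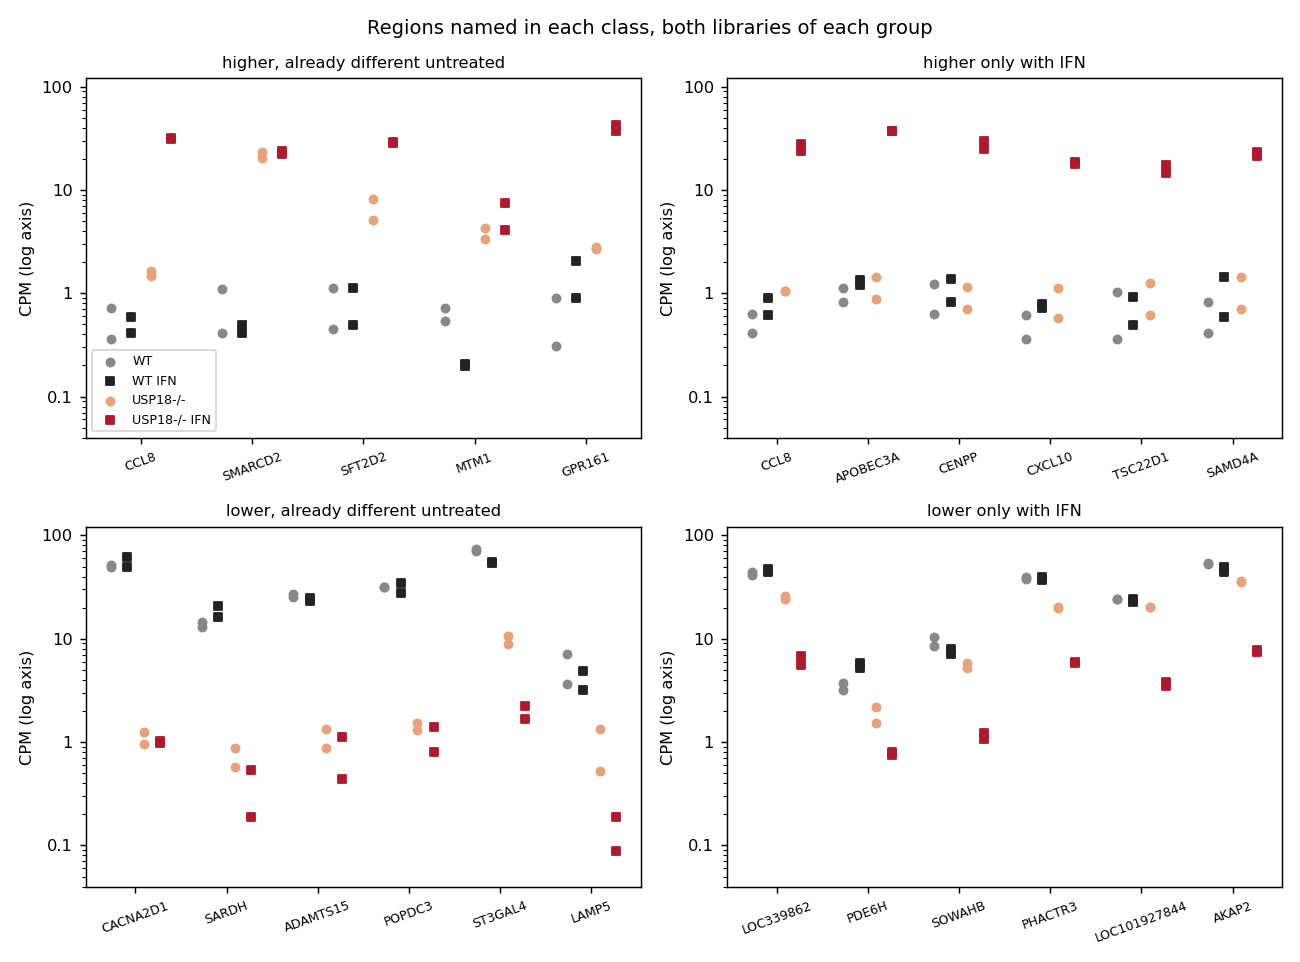
CPM on a log axis of up to 6 regions with the largest fold in each of 4 classes, named by the nearest gene, with both libraries of WT (grey dots), WT IFN (black squares), USP18-/- (orange dots) and USP18-/- IFN cells (red squares). In the left panels the untreated USP18-/- dots lie over 2-fold from the untreated WT dots. In the right panels the fitted untreated difference is less than 2-fold, though some single dots lie farther apart. The lower regions at PHACTR3, PDE6H, LOC339862, SOWAHB and AKAP2 were already significantly below WT untreated.

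Some genes held whole groups of such regions within 50000 bp. RCAN1, an inhibitor of calcineurin, had 9 already higher regions of 15 tested, with a median of log2 2.55 with IFN and 1.72 untreated. LHX3 had 8 of 10, RABGAP1L 8 of 13, FAR2 7 of 26 and FPR3, a formyl peptide receptor, 7 of 14. LHX3 stood out in that its median was 1.48 with IFN and 2.75 untreated. GALM, an enzyme of galactose metabolism, had 8 IFN-only regions of 9 tested (median log2 2.17 with IFN, 0.18 untreated), and IFIT3, an antiviral effector, 7 of 12 (1.91 and 0.04). IL10RA, the IL-10 receptor, had 6 of 16 and FFAR2, a receptor of short-chain fatty acids, 6 of 10. NRBF2 had 7 of 15 and TBC1D1 9 of 26, while 4 other regions of TBC1D1 were lower.

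On the lower side, PRDM10 had 14 already lower regions of 18 tested (median log2 -2.42), ST3GAL4 14 of 15 (-2.54) and ZNF366, a regulator in dendritic cells, 11 of 14 (-2.41). ADORA2B, an adenosine receptor, had 10 of 13 and LAMP5 10 of 12. FYB1, an adaptor of immune receptors, had 10 of 28, and 1 other region there was higher. Lower regions of the IFN-only kind, a smaller class, numbered 5 each at ENDOV, P2RY2, PHACTR3 and SLC25A10 and 4 each at ADAP1 and BEGAIN. Other regions were higher at PHACTR3 (2), ADAP1 (5) and BEGAIN (4). The 4 lower regions of BEGAIN lay in 1 chain of overlapping windows and the 4 of ADAP1 in 2 chains. Windows that overlap share tags, and neighbouring regions of 1 gene are not independent.

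Sequence composition differed between the classes. Motifs were searched on both strands in the central 200 bases of the regions over 3000 bp from a TSS, each motif by itself, so that 1 region can hold several. The ISRE core was in 6.50% of all 94429 such regions, in 35.5% of the 3115 IFN-only higher regions and in 39.5% of the 195 distal regions that turned sign from lower to higher. In already higher regions it was in 7.43%, in already lower ones in 4.12% and in IFN-only lower ones in 1.71%. TGATGNAA, the CHOP-ATF4 site, was in 6.79% of all and in 23.4% of the 2665 already higher regions, against 6.16% of IFN-only higher regions. The NF-kB consensus was in 4.62% of all, 8.14% of already higher and 4.11% of IFN-only higher regions. TTGCNNAA, a C-EBP site, was in 19.3% of all regions, 28.6% of the 7858 already lower and 24.6% of the 1400 IFN-only lower ones. It was also in 29.7% of the 195 distal regions that turned sign from lower to higher. TGANTCA, the AP-1 site, was within 10.9% to 17.6% in the 4 already different and IFN-only classes against 15.4% of all. Unassigned higher regions, 3729 in number, held the ISRE core in 16.2% and the AP-1 site in 19.7%. A core of the CTCF site was in 5.39% of all and in 1.69% to 3.30% of the 4 classes. Median GC content of the searched bases was 47.5% in all regions, 47.5% in already higher, 43.5% in IFN-only higher, 45.5% in already lower and 48.0% in IFN-only lower regions. These shares are descriptions, without a test, and a match is not evidence of binding.

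**Figure D5:**
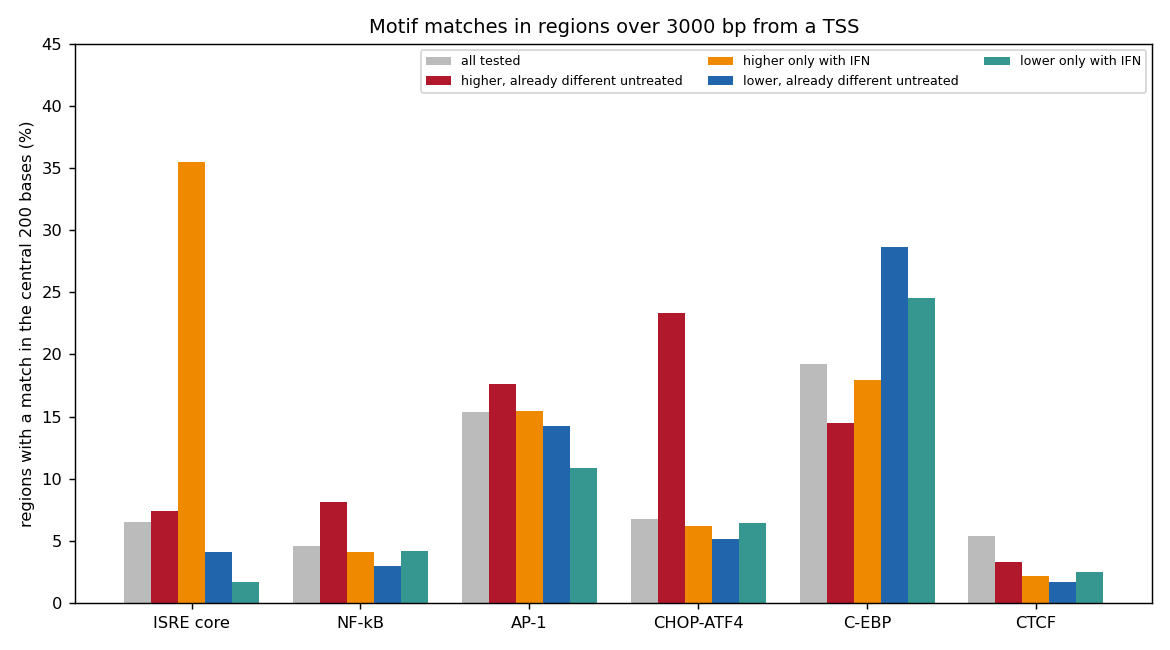
Share of regions over 3000 bp from a TSS with a motif match in the central 200 bases, for all tested regions and 4 classes. Among the 4 classes drawn, the ISRE core was most frequent in IFN-only higher regions (35.5%), CHOP-ATF4 in already higher regions (23.4%) and C-EBP in already lower regions (28.6%).

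The genotype difference also ran along chromosomes, with IFN and without. In 303 stretches of 10 Mb with at least 50 regions, medians of log2 lay between -0.87 and 1.04, and 18 were above 0.5 in size. The highest began at 170 Mb of chromosome 1 (1.04 with IFN, 0.76 untreated) and holds RABGAP1L. The lowest began at 10 Mb of chromosome 17 (-0.87 and -0.75) and holds ADORA2B. PRDM10 and ST3GAL4 lie on chromosome 11 in a stretch at -0.72 with IFN and -0.73 untreated, ADAMTS15 in the next one at -0.78, and FYB1 on chromosome 5 in one at -0.64. Copy number was not measured and its part in these values was not tested. After the median of the stretch was subtracted, 86.4% of already higher, 90.7% of already lower, 96.1% of IFN-only higher and 93.6% of IFN-only lower regions were still beyond 2-fold. These regions had been chosen as beyond 2-fold. The values subtracted were mostly small, with class medians of log2 0.10, -0.07, 0.04 and 0.02 in the same order. The shares are thus no test of copy number.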

How the data were processed

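H3K27ac ChIP-seq was analysed in 8 libraries of THP-1 cells, 2 per group. Read pairs were aligned to hg38 by the authors (Bowtie2), who counted tags by HOMER in 1000 bp windows at pooled ATAC-seq peaks. Their versions are not given in the sources used here. The deposited values are estimated counts (raw tags, each mate counted as part of a tag), of which 52.2% were whole. They were rounded to whole numbers, upward at ties. The mapping left 0 value columns without a sample. Of all windows 31.8% overlapped another.

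Regions that reached 10 counts in 2 or more libraries were scaled by TMM and fitted with 1 mean per group in edgeR 4.0.16 (limma 3.58.1, R 4.3.3). Tests were edgeR's quasi-likelihood tests with Benjamini-Hochberg adjustment over all tested regions, called at an absolute log2 fold change over 1 and an adjusted p under 0.05. The study's tool, DESeq2 1.42.0, was run as an alternative. Other alternatives were the scaling, filter, region set, replicate block and left-out libraries. The fit was tested on simulated data.

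The TSS region of a gene is the nearest region within 3000 bp by the deposited annotation. Named were USP18, from each list the 3 largest called rises and falls and the strongest gene not called, per class the 6 regions with the largest fold (at least 3 CPM in the higher group, groups not overlapping, within 50000 bp of a protein-coding gene) and the 6 genes with the most regions, and 4 genes of the study. Some genes that this rule picks are not reported here. Other genes were named after their values were seen. The comparison, lists and tests were chosen with earlier results of these data known. Sequences were read from the hg38 reference genome. Python was version 3.11.15. Input libraries were not analysed here.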

Additional observations from a re-analysis of the deposited data

Results flagged for a closer look

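The genotype effect, USP18-/- over WT, differed between IFN treated and untreated cells at the regions listed here, by edgeR's quasi-likelihood test of the difference between both effects. The sign turned at 218 regions that were lower in USP18-/- cells untreated and higher with IFN, and at 6 regions that went the other way. Among named genes the difference of the effects at the TSS region, on the log2 scale, was 1.20 at STAT2, 1.30 at STAT3 and 1.35 at USP18 itself. For ISG15 conjugation it was 2.03 at UBE2L6 and 1.57 at UBA7. For antiviral effectors it was 1.78 at IFIT5, 2.35 at RSAD2 and -2.29 at MX1. For sensors it was 1.45 at IFIH1, 2.13 at RIGI and 4.55 at AIM2, the largest among named TSS regions. IRF2 had 1.28, and the guanylate binding protein genes GBP4, GBP5 and GBP1 had 2.78, 2.96 and 2.69. SP100 and SP140L were at 1.28 and 1.29.

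Chemokine and cytokine genes with such a difference were CXCL10 (3.73), CCL4L2 (1.20), CCL2 (1.42) and CSF1 (1.11). BATF2 was at 2.36, CARD16 at 1.33, TNFSF10 at 2.05, CD274 at 1.67 and CD80 at 2.53. Of the myeloid genes CEBPE was at -1.67, LYZ at -1.32, MPO at -2.01 and PRTN3 at -1.38. The adjusted p nearest to the threshold were 0.048 at CCL2 and 0.038 at RSAD2.

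Among single regions the difference was 4.40 and 4.10 at both regions upstream of CCL8, 2.07 at SFT2D2, 2.65 at GPR161 and -1.91 at ST3GAL4. It was 4.63 at APOBEC3A, 4.62 at CENPP, 4.05 at TSC22D1 and 3.71 at SAMD4A. Negative differences were -2.12 at LOC339862, -1.93 at PDE6H, -1.94 at SOWAHB, -1.76 at PHACTR3, -2.44 at LOC101927844 and -2.03 at AKAP2.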

How the results depend on the processing

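Scaling and the choice of regions moved the counts most. By the sum of counts 8757 regions were higher with IFN, 2458 of them already different, and 2641 were lower only with IFN, and all 2458 were among the 4015 reported. A separate fit to regions within 3000 bp of a TSS gave 1824 higher and 3197 lower ones, with 511 already higher, 1557 already lower, 495 higher only with IFN and 250 lower only with IFN. In the same regions the scaling used here gave 4209, 1676, 1350, 839, 681 and 172. When any significant untreated difference counted, without a fold threshold, 6905 regions were already higher and 944 lower only with IFN. DESeq2 called 11390 higher and 13143 lower regions, and unrounded values, an alternative chosen after seeing the data, 14011 and 16617. Leaving out 1 library at a time gave 12099 to 13958 higher and 15015 to 17467 lower regions, 3695 to 3890 already higher, 8010 to 8413 already lower, 3157 to 3538 higher only with IFN and 1396 to 1883 lower only with IFN. That leaves a group with 1 library, which is assumed to vary like the others. Deviations of replicate 1 from its group mean in WT IFN and in USP18-/- IFN cells had r = -0.00135 across regions. With 2 libraries a group, those of replicate 2 mirror them. This is 1 pair and cannot show whether libraries were prepared in pairs. The numbers were not taken as a pairing. The fit with a replicate block gave 13884 higher and 16485 lower regions, and changed no named call but that of COL1A1.

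For 127 named regions, 1760 values were recomputed. Of these 1696 kept direction and side of the threshold, 62 no longer passed it, 2 newly passed it and 0 reversed. Named genes that lost their call under at least 1 alternative were BBC3, BCL6, CD14, CD86, COL1A1, CST7, CXCL1, IRF7, IRF9, KAT2A, KLF2, PAX5, SQLE, SREBF2, SRGN, STAT2, STAT3 and TNFSF10. Of 812 list counts 74 moved by over 1.5 times. Alternatives for lists and named genes within 3000 bp of a TSS were also chosen after seeing the data. The cause of these changes was not tested. Depth limits folds against groups under 1 CPM, which rest on few tags.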
